A study of Saccharomyces cerevisiae with 8 samples.

Results

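Heme depletion was studied in budding yeast, Saccharomyces cerevisiae, by setting a hem1 deletion strain grown without 5-aminolevulinic acid (ALA) against the same strain grown with it. The groups were taken from the labels and not from any measured value. They hold 4 of the 8 arrays of the study, 2 per group, and the comparison covers all 9275 probe sets other than the 60 controls, out of 9335 on the Affymetrix YG_S98 array. Per the labels, both groups carry the hem1 deletion and share a start of 6 h in YPD, a rich medium, supplemented with ALA at 250 µM. The cells were then washed and inoculated as duplicate 15 ml cultures, without ALA (ALA-free) or with it (ALA-fed), for 16 h, and harvested at an optical density of about 0.5 at 600 nm. The other 4 arrays are 2 of a wild type strain, labelled BY45742, after 12 h in an anaerobic chamber (hypoxia) and 2 of the same strain after 12 h in normoxia. The wild type cultures were in YPD without ALA. These 4 arrays share the estimate of the spread and supply values set beside those of the hem1 strain. The number of deletion clones and a measurement of heme are not given in the sources used here.

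Heme is made from ALA, which the enzyme encoded by HEM1 forms, by a chain of enzymes in the cytosol and the mitochondrion, the last of which inserts iron. It is the cofactor of the cytochromes of respiration, of catalases, and of enzymes of ergosterol and fatty acid synthesis, so cells without it cannot respire or complete their sterols and unsaturated fatty acids. Yeast also reads heme as a sign of oxygen: bound to heme, the activator Hap1 switches on respiratory and oxidative defense genes and the gene of Rox1, a repressor of genes used in low oxygen.

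Each value below is a MAS5 signal, a linear brightness that was scaled to 1 trimmed mean per array. The median signal was 157 and 159 on ALA-free arrays 1 and 2, against 117 and 122 on ALA-fed arrays 1 and 2. The median log2 signal thus differed by 0.40 while the trimmed mean was equal, so counts are also given with each array centred on its median and after quantile normalization. Duplicates of a probe set differed more than 2-fold for 279 of the tested probe sets (3.94%) between the ALA-free arrays and for 246 (3.47%) between the ALA-fed arrays. The actin gene's 3' to 5' signal ratio, a sign of RNA integrity, was 1.81 and 1.77 ALA-free, against 1.86 and 1.57 ALA-fed. ALA-free array 1, like 1 hypoxia array, stood apart in a bright signal of the 18S ribosomal RNA control probe sets a and b. Calls lost without both of these arrays include those of HEM1, HEM2, YFH1 and PDR15, and not every such call is named. The p-values rest on the spread between duplicates, and for the wild type nothing says that duplicates were separate cultures, so that spread may be technical. The markers of the MATalpha mating type were bright on all 8 arrays, and 9 of the 14 listed sporulation genes stayed too dim to test. Of the 5 tested sporulation genes 3 were higher and 0 lower without ALA, beside 31.2% and 19.0% of all genes. With median centring and after quantile normalization 2 were higher. Of 6 listed MATa markers 4 were bright enough to test.

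Transcript levels differed widely between ALA-free and ALA-fed cultures. Of 7081 probe sets bright enough to test, 3534 (49.9%) passed an adjusted p of 0.05 in limma, 2141 higher (30.2%) and 1393 lower (19.7%) without ALA. Read by gene, with the brightest probe set standing for each, 1647 of 5283 genes were higher (31.2%) and 1003 lower (19.0%), together 50.2%, with a median log2 difference of 0.16. The shares of genes called higher and lower were 19.8% and 33.9% with median centring and 23.5% and 26.7% after quantile normalization. On the spiked controls they were 20.4% and 24.6%. List counts, on the deposited signals too, are to be read against the shares of their own scaling. The balance of direction depends on the scaling. The higher share of the calls was 60.6% on the deposited signals, 36.8% with median centring, 46.5% after quantile normalization and 44.7% when arrays were set to their spiked control transcripts. On the deposited signals large changes were mostly rises: 1047 genes were called at least 2-fold higher and 446 at least 2-fold lower. Among genes above the 30th percentile on all 4 arrays, 66 were called at least 8-fold higher and 7 at least 8-fold lower. A further 112 genes crossed from dim (at or below the 30th percentile of both arrays) with ALA to bright without it, and 76 crossed the other way. Whatever the p-value, both ALA-free arrays exceeded both ALA-fed arrays for 45.8% of genes and lay below both for 31.7%. For genes with a dim group, or with 1 of 2 arrays dim, the fold is a lower bound. Leaving out 1 hem1 array at a time gave between 2658 and 2964 calls, and leaving out both arrays with a high 18S signal gave 2608.

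**Figure D1:**
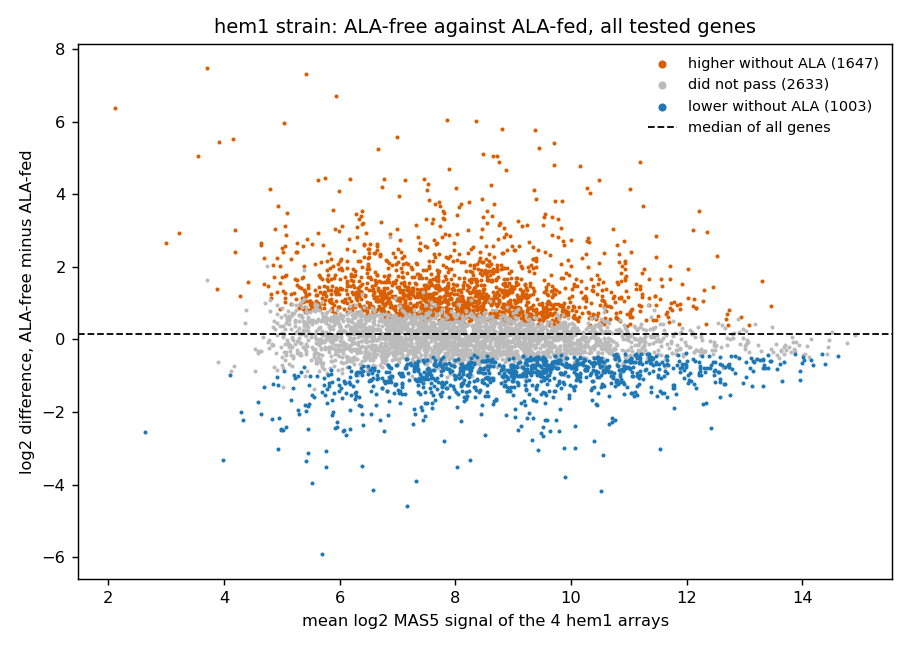
Log2 difference, ALA-free minus ALA-fed, on the vertical axis against the mean log2 signal of the 4 hem1 arrays on the horizontal axis, 1 point per tested gene. Orange points (1647) were called higher and blue points (1003) lower at an adjusted p of 0.05 in limma, grey points did not pass, and the dashed line marks the median over all genes, 0.16.

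Among the enzymes of heme synthesis the changes were small and mixed. Of the 8 genes 3 were higher and 1 was lower (2 higher and 3 lower with median centring, 2 and 2 after quantile normalization), against 31.2% higher and 19.0% lower of all genes tested on the deposited signals. With 3 of the 4 hem1 arrays, the lower count became 0 without ALA-free array 1, ALA-fed array 1 or ALA-fed array 2. The late mitochondrial steps gave the clearest difference. HEM14, for protoporphyrinogen oxidase, measured 864 and 749 ALA-free, against 327 and 286 ALA-fed. Both ALA-free arrays were the brighter, by 2.63-fold (log2 difference 1.40, SE 0.17, adjusted p = 0.000335). HEM15, for ferrochelatase, which inserts the iron, measured 1027 and 1127 ALA-free, against 549.9 and 645 ALA-fed, and was 1.81-fold higher (adjusted p = 0.0025). HEM2, for the enzyme that consumes ALA, measured 599 and 793 ALA-free, against 1058 and 1109 ALA-fed. It was 1.57-fold lower, a call that was lost without ALA-free array 1, ALA-fed array 1 or ALA-fed array 2 (adjusted p between 0.00741 and 0.249 over all alternatives). HEM13, for coproporphyrinogen oxidase, measured 459.8 and 866 ALA-free and 524 and 756 ALA-fed, with the groups overlapping and a log2 difference of 0.00 (SE 0.38), whereas the wild type had 2406 and 1817 in hypoxia and 363 and 194 in normoxia. The probe set named HEM1 measured 849 and 696 ALA-free, against 459.7 and 608 ALA-fed. Its place in the gene is not given here, so its signal is no check of the deletion. Its call as higher (1.45-fold) was lost with median centring, after quantile normalization, on the spiked controls and without ALA-free array 1 or ALA-fed array 1 (adjusted p between 0.0299 and 0.541 over all alternatives).

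A list of heme handling holds genes that move or break down heme and its precursors, and also genes of heme-binding and iron-binding proteins. These changed more, with 5 of 8 higher and 1 lower (4 higher and 1 lower with median centring, 5 and 1 after quantile normalization). Of all genes 31.2% were higher and 19.0% lower on the deposited signals. PUG1, for a plasma membrane transporter of porphyrins, measured 819.7 and 417 ALA-free, against 71.2 and 95.03 ALA-fed. The ALA-free arrays differed from each other, but both lay far above the ALA-fed arrays, with a 7.11-fold rise (adjusted p = 0.000289). HMX1, the heme oxygenase that opens the heme ring, measured 982 and 849 ALA-free, against 351 and 377 ALA-fed (2.51-fold higher, adjusted p = 0.00143). DAP1, for a heme-binding partner of the sterol demethylase, measured 965 and 831 ALA-free, against 372 and 208 ALA-fed (3.22-fold higher, adjusted p = 0.00258). All 3 of these rose, with no overlap between the groups. MDL1, for a mitochondrial ABC transporter, was 2.66-fold higher (adjusted p = 0.000811). The gene that fell, YFH1, encodes frataxin, a mitochondrial iron-binding protein, and measured 80.1 and 83.4 ALA-free, against 189 and 195 ALA-fed (2.35-fold lower, adjusted p = 0.00887). That call was lost when both arrays with a high 18S signal were left out (adjusted p between 0.00284 and 0.0732 over all alternatives).

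The hemoprotein list holds cytochromes, cytochrome P450 and cytochrome b5-domain enzymes, catalases and a flavohemoglobin, but not the heme-binding DAP1 and BNA2, which were counted elsewhere. Of its 14 tested genes 1 was higher and 6 were lower (0 higher and 9 lower with median centring, 1 and 9 after quantile normalization), with a median log2 difference of -0.33, against 0.16 over all genes. The higher count became 0 without any 1 of the 4 arrays, and the lower count became 3 without ALA-free array 2 or ALA-fed array 2. The lower genes include CYC1, which was dim on all hem1 arrays and was tested because of its normoxia arrays, and CTA1, whose call is weak. The count of lower genes was 5 with the filter set on the hem1 arrays and 4 with dim signals raised to the 30th percentile. The falls with the firmest calls were in a flavohemoglobin and lipid enzymes. YHB1, for the flavohemoglobin that detoxifies nitric oxide, measured 254 and 227 ALA-free, against 1906 and 2054 ALA-fed. The ALA-fed arrays were several times brighter, a fall of 8.24-fold (SE 0.16 on the log2 scale, adjusted p = 4.46e-06). SCS7, for the cytochrome b5-domain hydroxylase of sphingolipid fatty acids, measured 699 and 753 ALA-free, against 3288 and 4023 ALA-fed. It fell 5.02-fold (adjusted p = 1.55e-05) with no overlap. ERG11, for the sterol demethylase, a cytochrome P450, measured 3246 and 3003 ALA-free, against 5921 and 4647 ALA-fed (1.68-fold lower, adjusted p = 0.0039). By contrast OLE1, for the fatty acid desaturase, did not pass, with 9739.7 and 8459.9 ALA-free and 8031 and 7308 ALA-fed (log2 difference 0.24, SE 0.16). CYB5, for cytochrome b5, did not pass either on the deposited signals (284 and 307 ALA-free and 392 and 350.4 ALA-fed, -0.33, SE 0.17). CYC1 and CTT1, for cytochrome c and the cytosolic catalase, were dim on all 4 hem1 arrays, so no fold is given, while CYC1 measured 660.4 and 809.6 in normoxia. CTA1, for the peroxisomal catalase, measured a dim 26.7 and 14.5 ALA-free, against 53.1 and 41.7 ALA-fed. Its call as lower was lost without ALA-free array 2, ALA-fed array 1 or ALA-fed array 2 (adjusted p between 0.00877 and 0.925 over all alternatives).

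**Figure D2:**
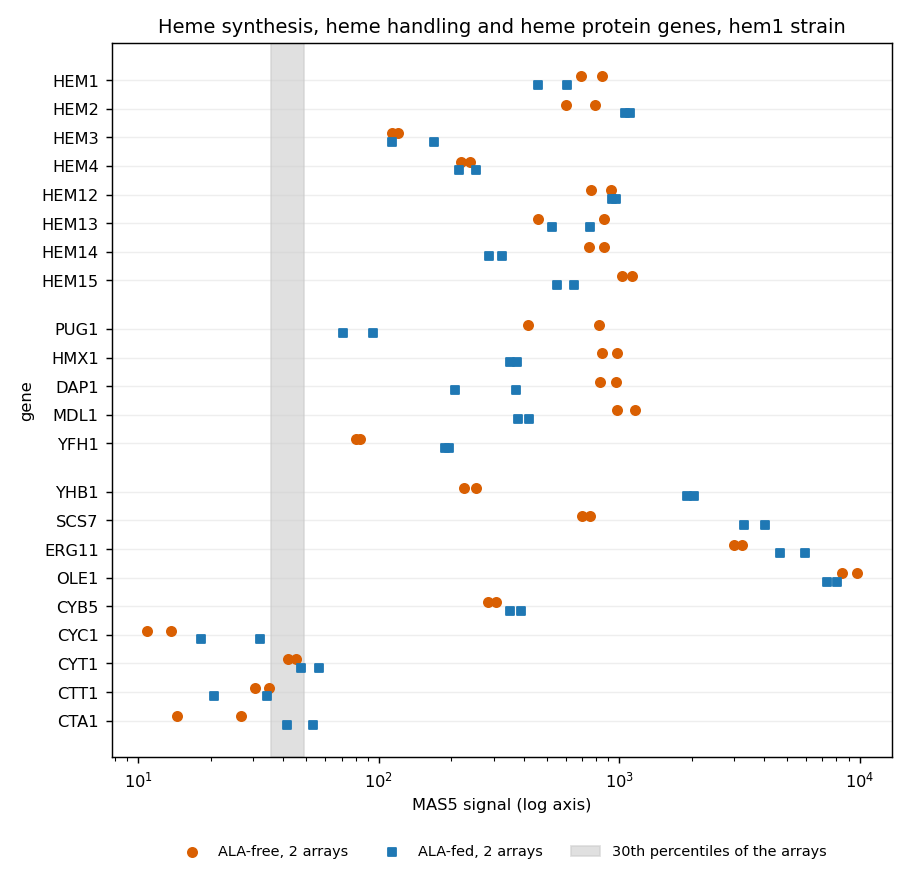
MAS5 signal of genes of heme synthesis, heme handling and heme proteins on a log axis, 1 row per gene. Orange circles are the 2 ALA-free arrays and blue squares the 2 ALA-fed arrays of the hem1 strain. PUG1, HMX1 and HEM14 lie higher without ALA, YHB1 and SCS7 lie lower, and HEM13 and OLE1 do not pass.

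The genes of heme and oxygen regulators were called in both directions. As a list, they stood near the deposited-signal shares of all genes, 31.2% higher and 19.0% lower. Of 21 tested, 7 were higher and 5 lower (4 higher and 9 lower with median centring, 4 and 8 after quantile normalization). In fits that left out 1 array, the lower count became 3 without ALA-fed array 1 or ALA-fed array 2. The lower genes include HAP1, counted by its brightest probe set although its probe sets disagree. UPC2, for the activator of sterol uptake and anaerobic wall genes, measured 909 and 928 ALA-free, against 138 and 123 ALA-fed. It rose 7.04-fold (SE 0.17 on the log2 scale, adjusted p = 9.18e-06). AFT2, for an activator of iron genes, measured 499.7 and 452 ALA-free, against 179.9 and 213 ALA-fed (2.43-fold higher, adjusted p = 0.000911). MSN4, for an activator of general stress genes, measured 511 and 616 ALA-free, against 236 and 221 ALA-fed (2.46-fold higher, adjusted p = 0.000889). The subunits of the respiratory activator complex moved apart. HAP4, its regulatory subunit, measured 118 and 164 ALA-free, against 348 and 343 ALA-fed (2.49-fold lower, adjusted p = 0.000946), and HAP5, a DNA-binding subunit, measured 281 and 280.1 ALA-free, against 121 and 149.6 ALA-fed (2.08-fold higher, adjusted p = 0.00254). ROX1 did not pass, at 59.2 and 53.6 ALA-free and 70.2 and 71.3 ALA-fed. HAP1 itself cannot be given 1 direction, because its 3 probe sets disagree. One of them measured 1146 and 1151 ALA-free, against 283 and 287 ALA-fed (log2 difference 2.01), while the other 2, of a type that can match related sequences, differed by -1.26 and -1.58. Of 252 genes with more than 1 tested probe set, 4 had opposite calls in this way, namely HAP1, FKS1, YIP3 and ZRT1.

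Of 12 genes that Hap1 is known to activate with heme, 1 was higher and 6 were lower, beside 31.2% and 19.0% of all genes. With median centring 1 was higher and 8 were lower, and after quantile normalization 1 and 8. NDE1, for the external NADH dehydrogenase of mitochondria, measured 963 and 985 ALA-free, against 2223 and 2458 ALA-fed (2.40-fold lower, adjusted p = 0.000218). SOD2, for the mitochondrial superoxide dismutase, measured 172 and 194 ALA-free, against 419 and 325 ALA-fed (2.02-fold lower, adjusted p = 0.00225). The gene called higher was DLD1, for D-lactate dehydrogenase, which measured 1811 and 1816 ALA-free, against 750.03 and 709 ALA-fed. It rose 2.49-fold (adjusted p = 0.000274).

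Of 15 tested genes known to be repressed by Rox1 in the presence of heme, 5 were higher and 2 lower (3 higher and 5 lower with median centring, 8 and 4 after quantile normalization), beside 31.2% higher and 19.0% lower of all genes. When 1 array was left out, the higher count became 3 without ALA-free array 1 and 2 without ALA-fed array 1, and the lower count became 1 without ALA-free array 1, ALA-fed array 1 or ALA-fed array 2. ANB1, the hypoxic form of translation factor eIF5A, measured 11879 and 9776 ALA-free and 7713 and 8217 ALA-fed, and did not pass. In the wild type ANB1 measured 12336 and 14677 in hypoxia, against 518 and 629 in normoxia, so both hem1 groups lay near the hypoxic level. SUT1, a regulator of sterol uptake, also did not pass, with 379 and 372 ALA-free and 409 and 384 ALA-fed, while it measured 481 and 479 in hypoxia, against 96.2 and 80.98 in normoxia. The difference of the responses was -4.12 for ANB1 and -2.52 for SUT1 (adjusted p = 0.000163 and 0.000787), and the ALA-fed minus normoxia difference was 3.80 and 2.17 (adjusted p = 2.07e-05 and 0.000166). ALA-fed and normoxia cultures differ in strain, ALA and culture time, which cannot be told apart. DAN1, for an anaerobic wall mannoprotein, measured 5919 and 6119 ALA-free, against 1357 and 2638 ALA-fed. It rose 3.18-fold (adjusted p = 0.0159), a call lost without ALA-free array 1, ALA-free array 2 or ALA-fed array 1 (adjusted p between 0.00161 and 0.114 over all alternatives), and its normoxia values were 11.5 and 32.7.

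The anaerobic cell wall genes had the highest median differences of all lists examined. All 10 tested seripauperins (PAU), small mannoproteins made in low oxygen, were higher with the deposited signals and with the 3 other scalings (10 higher and 0 lower with median centring, 10 and 0 after quantile normalization), with a median log2 difference of 4.98. PAU3 measured 5862 and 5129.5 ALA-free, against 116 and 139 ALA-fed, and PAU16 4780.4 and 4008 ALA-free, against 113 and 111 ALA-fed. Rises of 43.2-fold and 39.2-fold (adjusted p = 1.16e-06 and 1.16e-06) separate these groups, but PAU copies are near-identical and single members are uncertain. Of the DAN and TIR mannoproteins 6 of 7 were higher (5 higher and 0 lower with median centring, 7 and 0 after quantile normalization). TIR4 measured 16799 and 15572 ALA-free, against 1123 and 1723 ALA-fed (11.6-fold higher, adjusted p = 8.47e-06), and TIR3 11224 and 14064 ALA-free, against 1553 and 1563 ALA-fed (8.07-fold higher, adjusted p = 3.24e-06). DAN4 measured 1318 and 1387 ALA-free, against 105 and 81.4 ALA-fed (14.6-fold higher, adjusted p = 3.45e-06). TIR1 was bright in both groups, 26946 and 23123 ALA-free and 24136 and 19607 ALA-fed, and did not pass. The ALA-fed cultures were already above normoxia for some of these genes: TIR4 measured 102 and 108 and TIR1 2941 and 3015 in normoxia. The ALA-fed minus normoxia difference was 3.73 for TIR4 (adjusted p = 5.46e-05) and 2.87 for TIR1 (adjusted p = 4.36e-05). That comparison shares the ALA-fed arrays with the present one. Its groups differ in strain, ALA and culture time, which cannot be told apart. In it 12.6% of genes were called higher and 9.14% lower. Its 1540 called probe sets (21.7%, with 13.8% higher and 7.92% lower) became 838 without ALA-fed array 1 and 695 without ALA-fed array 2.

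Wall mannoproteins of aerobic growth were called in both directions, beside 31.2% higher and 19.0% lower of all genes. Of 8, 2 were higher and 3 lower (1 higher and 4 lower with median centring, 3 and 3 after quantile normalization). With 3 of the 4 hem1 arrays, the higher count became 1 without ALA-free array 1, ALA-free array 2 or ALA-fed array 1. CWP2 measured 2468 and 2213 ALA-free, against 15182 and 10773 ALA-fed (5.47-fold lower, adjusted p = 3.35e-05), and CWP1 281 and 300.5 ALA-free, against 2757 and 1113 ALA-fed (6.03-fold lower, adjusted p = 0.000628). The ALA-fed arrays of CWP1 differed by more than 2-fold. The fold was 3.83 without ALA-fed array 1 and 9.49 without ALA-fed array 2. Within 1 family the members parted. PIR3 measured 1142 and 1292 ALA-free, against 49.6 and 43.8 ALA-fed, and PIR1 355 and 315 ALA-free, against 2415 and 2953 ALA-fed. These wall glycoproteins thus differed by 4.70 and -2.997 on the log2 scale (adjusted p = 2.42e-06 and 1.27e-05). SPI1, a stress-linked wall protein, was 5.12-fold higher (adjusted p = 0.000218).

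Genes of sterol uptake rose, while those of ergosterol synthesis were called in both directions. Of all genes 31.2% were higher and 19.0% lower on the deposited signals, and the mevalonate calls stood near or below these shares. Of 12 genes of uptake, esterification and sterol export, 8 were higher and 1 lower (7 higher and 2 lower with median centring, 7 and 1 after quantile normalization). AUS1, an ABC transporter that imports sterols in low oxygen, measured 2175 and 2229 ALA-free, against 305 and 297 ALA-fed (7.31-fold higher, adjusted p = 3.45e-06). Its paralog PDR11 measured 209 and 264 ALA-free, against 46.7 and 45.9 ALA-fed (5.07-fold higher, adjusted p = 6.42e-05). HES1, of the oxysterol-binding family, rose at least 13.7-fold, to 726 and 692 ALA-free, against 33.95 and 72.002 ALA-fed (adjusted p = 0.00144). The secreted sterol-binding proteins moved in opposite directions, PRY1 with 14923 and 14192 ALA-free, against 2092 and 1652 ALA-fed, and PRY2 with 398 and 484 ALA-free, against 829 and 1319 ALA-fed (log2 differences 2.97 and -1.25, adjusted p = 5.76e-06 and 0.00301). In the mevalonate branch 3 of 10 genes were higher and 1 was lower (2 higher and 2 lower with median centring, 3 and 1 after quantile normalization). The lower count became 0 without ALA-free array 1, ALA-fed array 1 or ALA-fed array 2. HMG2, the isoform of HMG-CoA reductase known from low oxygen, measured 2683 and 2550.0 ALA-free, against 1326 and 973 ALA-fed (2.303-fold higher, adjusted p = 0.0012). MVD1, for mevalonate diphosphate decarboxylase, was 1.99-fold higher (adjusted p = 0.00144). Of the late ergosterol genes 3 of 15 were higher and 5 lower (2 higher and 8 lower with median centring, 4 and 6 after quantile normalization). In fits that left out 1 array, the lower count became 2 without ALA-free array 1, 3 without ALA-free array 2 or ALA-fed array 1 and 1 without ALA-fed array 2. ERG6 and ERG24, for sterol methyltransferase and sterol reductase, were 1.92-fold and 1.83-fold higher (adjusted p = 0.00111 and 0.00299), opposite to ERG11 above.

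Fatty acid and phospholipid genes changed in both directions. The synthesis genes rose: ACC1, for acetyl-CoA carboxylase, measured 17793 and 17569 ALA-free, against 6463 and 5088 ALA-fed (3.08-fold higher, adjusted p = 7.18e-05). FAS1 and FAS2, the subunits of fatty acid synthase, were 2.26-fold and 1.899-fold higher (adjusted p = 0.00205 and 0.00182). The elongase genes fell, ELO1 with 797 and 904 ALA-free, against 2475 and 2270.0 ALA-fed (2.79-fold lower, adjusted p = 0.000168), and ELO2 with 539.9 and 423 ALA-free, against 1354 and 1502 ALA-fed (2.99-fold lower, adjusted p = 0.000212). FAA1, for the main acyl-CoA synthetase of imported fatty acids, was dim without ALA (16.4 and 10.9), against 106 and 175 ALA-fed, a fall of at least 2.86-fold (adjusted p = 0.00153). Over the 15 genes of the list 6 were higher and 5 lower (4 higher and 7 lower with median centring, 6 and 5 after quantile normalization). Among 16 phospholipid genes 9 were higher and 2 lower (5 higher and 4 lower with median centring, 5 and 2 after quantile normalization). When 1 array was left out, the lower count became 1 without ALA-free array 2, ALA-fed array 1 or ALA-fed array 2. INO2, for an activator of phospholipid synthesis, measured 1448 and 1145 ALA-free, against 119.8 and 173 ALA-fed (8.95-fold higher, adjusted p = 3.24e-05). OPI3, for a methyltransferase of phosphatidylcholine synthesis, measured 1647 and 2124 ALA-free, against 430.3 and 447 ALA-fed (4.27-fold higher, adjusted p = 0.000238). CKI1, for choline kinase, was 5.48-fold higher (adjusted p = 0.00014). CDS1, for CDP-diacylglycerol synthase, went the other way, with 199 and 204 ALA-free, against 491 and 577 ALA-fed (2.65-fold lower, adjusted p = 0.000293).

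Most siderophore uptake genes did not pass between the hem1 groups. Of 8 siderophore uptake genes 0 were higher and 1 was lower (0 higher and 2 lower with median centring, 0 and 1 after quantile normalization). The iron-siderophore wall protein gene FIT3 measured 16581 and 13253 ALA-free, against 14333 and 14122 ALA-fed, with the arrays overlapping, and the wild type measured 1190.2 and 1345 in normoxia. ARN2, a siderophore transporter, measured 4685 and 5549 ALA-free and 4805 and 4431 ALA-fed, also overlapping. The ALA-fed minus normoxia difference was 3.49 for FIT3 and 3.81 for ARN2 (adjusted p = 2.44e-05 and 2.07e-05). Strain, ALA and culture time cannot be told apart in that difference. Between the hem1 groups FIT1 was the exception, with 273 and 219.6 ALA-free, against 1259.7 and 1309 ALA-fed (5.24-fold lower, adjusted p = 0.00159). Of 21 genes of reductive uptake and iron sparing 6 were higher and 1 lower (4 higher and 4 lower with median centring, 6 and 1 after quantile normalization). With 3 of the 4 hem1 arrays, the lower count became 0 without ALA-fed array 1 or ALA-fed array 2. TIS11, for the protein that destroys mRNAs of iron-using enzymes, measured 6282 and 6882 ALA-free, against 1906 and 2740.1 ALA-fed (2.88-fold higher, adjusted p = 0.00217). ISU2, an iron-sulfur scaffold, measured 1212 and 1042 ALA-free, against 495 and 584 ALA-fed (2.09-fold higher, adjusted p = 0.0028).

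Respiratory chain, ATP synthase and citric acid cycle genes were called in both directions, beside 31.2% higher and 19.0% lower of all genes. Of 10 nuclear subunits of cytochrome c oxidase 1 was higher and 3 were lower (0 higher and 7 lower with median centring, 1 and 4 after quantile normalization). The higher count became 0 without ALA-fed array 1 and 2 without ALA-fed array 2. COX6 measured 245 and 278 ALA-free, against 564 and 544 ALA-fed (2.12-fold lower, adjusted p = 0.00117), and COX5A 123 and 132 ALA-free, against 255 and 259 ALA-fed (2.02-fold lower, adjusted p = 0.00116). Of 9 genes of the cytochrome bc1 complex 1 was higher and 1 lower (0 higher and 4 lower with median centring, 0 and 3 after quantile normalization). In fits that left out 1 array, the higher count became 0 without any 1 of the 4 arrays, and the lower count became 2 without ALA-free array 1. Of 11 genes of succinate dehydrogenase, its paralogs and its assembly 5 were higher and 1 was lower (4 higher and 2 lower with median centring, 4 and 2 after quantile normalization). When 1 array was left out, the lower count became 0 without ALA-fed array 1. Of 16 ATP synthase genes 5 were higher and 2 lower (3 higher and 5 lower with median centring, 4 and 3 after quantile normalization). With 3 of the 4 hem1 arrays, the higher count became 3 without ALA-free array 1, and the lower count became 1 without ALA-free array 2, ALA-fed array 1 or ALA-fed array 2. Citric acid cycle genes were 3 higher and 5 lower of 14 (1 higher and 7 lower with median centring, 2 and 6 after quantile normalization). ACO1, for aconitase, an iron-sulfur enzyme, measured 762 and 845 ALA-free, against 3570.2 and 3883 ALA-fed. All ALA-fed values were far above the ALA-free ones, a fall of 4.64-fold (SE 0.15 on the log2 scale, adjusted p = 1.7e-05). IDH2 and IDH1, the subunits of isocitrate dehydrogenase, followed: IDH2 measured 4531 and 3996 ALA-free, against 9609 and 10417 ALA-fed (2.35-fold lower, adjusted p = 0.000387), and IDH1 1308 and 1317 ALA-free, against 2223 and 3077 ALA-fed (1.99-fold lower, adjusted p = 0.0065). LSC2, a subunit of succinyl-CoA ligase, rose 2.35-fold (adjusted p = 0.00421), and LSC1, the other subunit, fell 1.49-fold (adjusted p = 0.00724).

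Genes used on poor carbon sources rose, in cultures that had been placed in YPD, a medium that contains glucose. Of 12 genes of the glyoxylate cycle, gluconeogenesis and acetyl transfer 10 were higher and 0 lower (9 higher and 0 lower with median centring, 10 and 0 after quantile normalization). PCK1, for the gluconeogenic enzyme phosphoenolpyruvate carboxykinase, measured 3019.7 and 3372 ALA-free, against 249.5 and 201 ALA-fed. The ALA-free arrays were 14.2-fold brighter (SE 0.20 on the log2 scale, adjusted p = 4.17e-06). ICL1, for isocitrate lyase of the glyoxylate cycle, measured 560.3 and 776 ALA-free, against 166 and 173 ALA-fed (3.88-fold higher, adjusted p = 0.000178). MDH2, for cytosolic malate dehydrogenase, measured 6925 and 6574 ALA-free, against 1531 and 1788 ALA-fed (4.08-fold higher, adjusted p = 2.02e-05). ACS1, for an acetyl-CoA synthetase repressed by glucose, was 5.25-fold higher (adjusted p = 3.35e-05). Of 13 genes of peroxisomal fatty acid breakdown 9 were higher and 1 lower (8 higher and 1 lower with median centring, 8 and 1 after quantile normalization). The lower count became 0 without ALA-free array 2, ALA-fed array 1 or ALA-fed array 2. POT1, for its thiolase, measured 336 and 405 ALA-free, against 39.4 and 49.9 ALA-fed (8.32-fold higher, adjusted p = 2.18e-05), and FOX2, its multifunctional enzyme, 633 and 724 ALA-free, against 159.8 and 263 ALA-fed (3.305-fold higher, adjusted p = 0.000747). Among hexose carriers, HXT5, a transporter known from slow growth, measured 1734 and 3219 ALA-free, against 122 and 70.2 ALA-fed. It rose 25.6-fold (SE 0.57 on the log2 scale, adjusted p = 0.00035). The glucose-induced HXT1 and HXT3 did not pass, HXT3 with 13306 and 11904 ALA-free and 13846 and 14303 ALA-fed.

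Reserve carbohydrate genes rose nearly throughout. Of 11 glycogen genes 10 were higher and 0 lower (9 higher and 0 lower with median centring, 9 and 0 after quantile normalization), and of 10 trehalose genes 7 were higher and 1 was lower (6 higher and 1 lower with median centring, 6 and 1 after quantile normalization). GLC3, for the glycogen branching enzyme, measured 1351 and 1329.5 ALA-free, against 249.9 and 205 ALA-fed (5.92-fold higher, adjusted p = 1.68e-05). TSL1, a subunit of trehalose synthase, measured 1936 and 2344 ALA-free, against 446 and 482 ALA-fed (4.596-fold higher, adjusted p = 2.24e-05). ATH1, for the acid trehalase that degrades it, measured 321 and 294 ALA-free, against 60.7 and 55.9 ALA-fed (5.28-fold higher, adjusted p = 2.82e-05), so genes of synthesis and of breakdown were both higher. The phosphoglucomutases on this list parted: PGM2 measured 1672 and 1677 ALA-free, against 536 and 504 ALA-fed, and PGM1 385 and 335 ALA-free, against 790.1 and 696 ALA-fed (log2 differences 1.69 and -1.05, adjusted p = 0.000102 and 0.00127).

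General stress genes rose. Of 35 genes known as targets of the stress activators Msn2 and Msn4 29 were higher and 0 lower (26 higher and 1 lower with median centring, 30 and 0 after quantile normalization), with a median log2 difference of 1.94. DDR2, a stress gene of this list, measured 13467 and 12875 ALA-free, against 3007 and 2347 ALA-fed (4.96-fold higher, adjusted p = 2.24e-05). Chaperones of the Hsp90, Hsp104 and small heat shock families and their helpers were 12 higher and 0 lower of 18 (10 higher and 4 lower with median centring, 12 and 0 after quantile normalization). HSP104, a disaggregase, measured 2719.9 and 2613 ALA-free, against 318 and 496 ALA-fed (6.71-fold higher, adjusted p = 8.2e-05), and HSP26, a small heat shock protein, 6591 and 5948 ALA-free, against 1309 and 1265 ALA-fed (4.87-fold higher, adjusted p = 8.25e-06). The cytosolic Hsp70 genes parted. SSA3 measured 2376 and 2269 ALA-free, against 68.4 and 70.3 ALA-fed (33.5-fold higher, adjusted p = 1.25e-06), while SSA1, the abundant form, did not pass, with 34537 and 30182 ALA-free and 34959 and 25337 ALA-fed. Of 17 hydrophilins, stationary phase and drying stress genes 12 were higher and 3 lower (12 higher and 3 lower with median centring, 12 and 3 after quantile normalization), among them SUR7 and YNL194C, paralogs of the same plasma membrane family. SUR7 measured 194 and 267 ALA-free, against 1294 and 1301 ALA-fed (5.69-fold lower, adjusted p = 0.000119), and YNL194C 159 and 189 ALA-free, against 0.889 and 1.07 ALA-fed (at least 4.79-fold higher, adjusted p = 1.46e-05).

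Oxidative defense genes were called at shares near those of all genes on the deposited signals, 31.2% higher and 19.0% lower. Of 30, 10 were higher and 6 lower (8 higher and 13 lower with median centring, 9 and 7 after quantile normalization). In fits that left out 1 array, the lower count became 3 without ALA-free array 2 or ALA-fed array 1. TSA2, a minor peroxiredoxin, measured 2597 and 2240.3 ALA-free, against 237 and 223 ALA-fed (10.5-fold higher, adjusted p = 2.91e-06). The main cytosolic peroxiredoxin gene TSA1 did not pass, at 10688 and 9829 ALA-free and 14370.0 and 11812 ALA-fed. PRX1, the mitochondrial peroxiredoxin, measured 1288 and 1169 ALA-free, against 305 and 305 ALA-fed (4.02-fold higher, adjusted p = 2.54e-05), and GPX1, a glutathione peroxidase, was 6.73-fold higher (adjusted p = 6.16e-05). GSH2, for glutathione synthetase, measured 188 and 193 ALA-free, against 376 and 405 ALA-fed (2.05-fold lower, adjusted p = 0.00128).

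Many genes of vitamins, nitrogen use and autophagy were higher, beside 31.2% higher and 19.0% lower of all genes. Of 13 genes of thiamine and vitamin B6 12 were higher and 1 was lower (10 higher and 1 lower with median centring, 10 and 1 after quantile normalization). THI4, for thiazole synthesis, measured 2723 and 2455 ALA-free, against 181 and 173 ALA-fed (14.6-fold higher, adjusted p = 1.71e-06), and SNZ1, for vitamin B6 synthesis, 2752 and 2803 ALA-free, against 289.9 and 267 ALA-fed (9.98-fold higher, adjusted p = 1.11e-05). The gene that fell was PHO3, an acid phosphatase that releases thiamine outside the cell, with 791 and 721 ALA-free, against 3939 and 3453 ALA-fed (4.88-fold lower, adjusted p = 0.000181). Of 11 genes of NAD synthesis 6 were higher and 1 was lower (2 higher and 1 lower with median centring, 6 and 1 after quantile normalization). When 1 array was left out, the higher count became 3 without ALA-fed array 1. On the spiked controls 2 of these NAD genes were higher, as with median centring. Under both scalings the higher calls thus stood near the shares of all genes, 20.4% and 19.8%. BNA2, for the first step of NAD synthesis from tryptophan, an oxygenase that uses heme, rose at least 13.01-fold, to 443 and 593 ALA-free, against 26.4 and 41.8 ALA-fed (adjusted p = 2.82e-05). Of 20 genes for the use of poor nitrogen sources 14 were higher and 2 lower (10 higher and 3 lower with median centring, 12 and 3 after quantile normalization). With 3 of the 4 hem1 arrays, the higher count became 9 without ALA-free array 2, and the lower count became 1 without ALA-fed array 1 or ALA-fed array 2. DAL5, an allantoate transporter, was 5.17-fold higher (adjusted p = 0.000184), and PTR2, the peptide transporter, measured 289 and 284 ALA-free, against 1538 and 1058 ALA-fed (4.46-fold lower, adjusted p = 8.2e-05). Of 27 autophagy genes 22 were higher and 0 lower (19 higher and 0 lower with median centring, 20 and 0 after quantile normalization). ATG15, a vacuolar lipase, measured 759 and 657 ALA-free, against 63.9 and 78.3 ALA-fed (9.98-fold higher, adjusted p = 1.45e-05), and ATG8, the coat protein of autophagosomes, measured 1644 and 2466 ALA-free, against 689.7 and 812 ALA-fed (2.69-fold higher, adjusted p = 0.00308).

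Drug efflux and phosphate genes were called in both directions as well, beside 31.2% higher and 19.0% lower of all genes. Of 19 genes of pleiotropic drug resistance 6 were higher and 7 lower (4 higher and 10 lower with median centring, 5 and 10 after quantile normalization). The ABC transporters PDR10 and PDR15 went apart, PDR10 with 3594 and 3326 ALA-free, against 674 and 662 ALA-fed, and PDR15 with 131 and 189.7 ALA-free, against 554 and 467 ALA-fed (log2 differences 2.37 and -1.69, adjusted p = 9.18e-06 and 0.00552). The call of PDR15 was lost when both arrays with a high 18S signal were left out (adjusted p between 0.00152 and 0.0703 over all alternatives). PDR16, a phosphatidylinositol transfer protein, measured 377 and 361 ALA-free, against 1937 and 2334 ALA-fed (5.76-fold lower, adjusted p = 4.88e-05). Of 16 phosphate genes 4 were higher and 6 lower (3 higher and 12 lower with median centring, 3 and 8 after quantile normalization). VTC3, a subunit of the complex that makes vacuolar polyphosphate, measured 324 and 319.9 ALA-free, against 1052 and 1053 ALA-fed (3.27-fold lower, adjusted p = 6.3e-05). PHM8, a nucleotide phosphatase, measured 1108 and 1161 ALA-free, against 290.3 and 263 ALA-fed (4.105-fold higher, adjusted p = 2.54e-05), so the list holds clear calls in both directions.

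**Figure D3:**
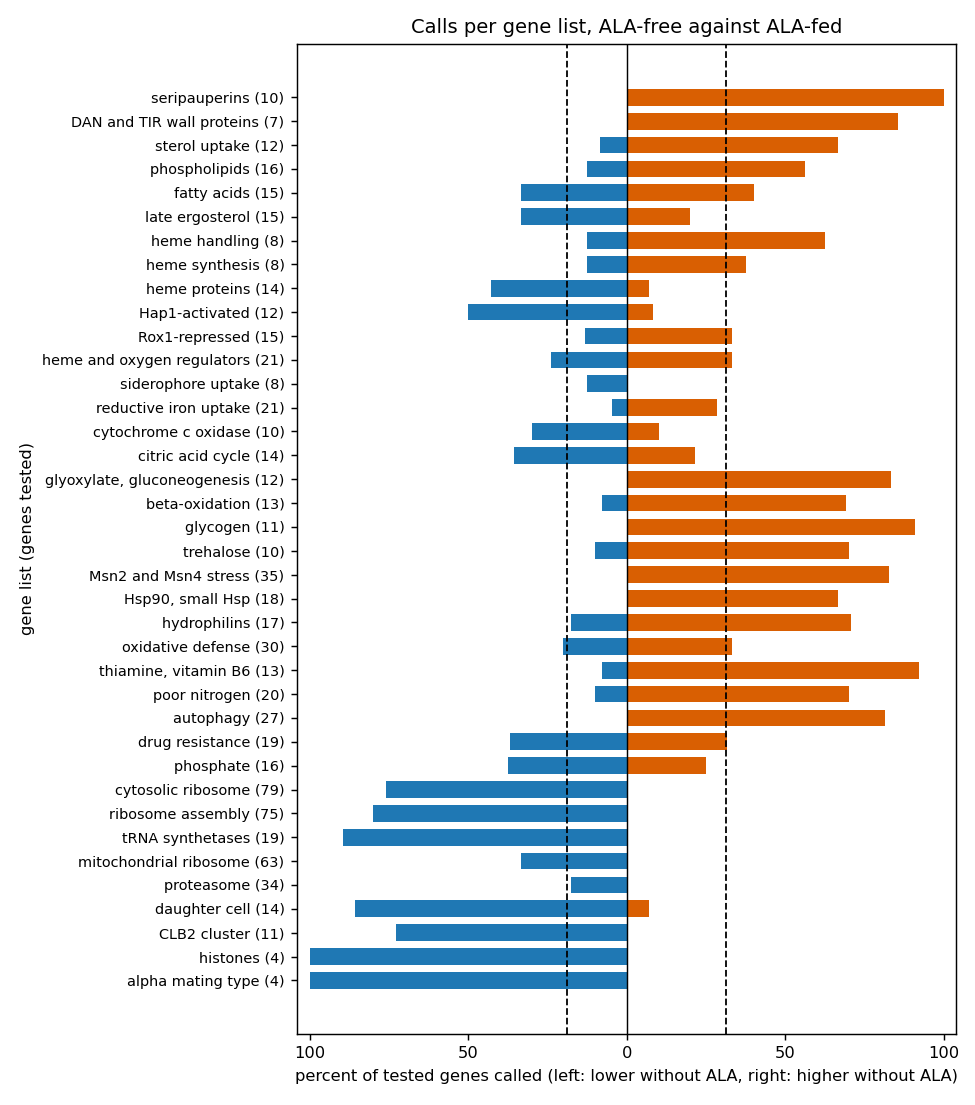
Percent of the tested genes of each list that were called higher (orange, to the right) or lower (blue, to the left) in ALA-free against ALA-fed cultures on the deposited signals, with the number tested in brackets. The dashed lines are the background over all 5283 genes, 31.2% higher and 19.0% lower.

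Genes for making proteins were lower. Of 79 cytosolic ribosomal protein genes 60 were lower and 0 higher (0 higher and 78 lower with median centring, 1 and 45 after quantile normalization), with a median log2 difference of -0.68. Of 75 ribosome assembly genes 60 were lower and 0 higher (0 higher and 73 lower with median centring, 0 and 68 after quantile normalization), and of 19 tRNA synthetase genes 17 were lower and 0 higher (0 higher and 19 lower with median centring, 0 and 16 after quantile normalization). Copies of ribosomal protein genes can share probe signal, so single members are uncertain. NOP1, for the rRNA methylase fibrillarin, measured 1479 and 1191 ALA-free, against 2477 and 2679 ALA-fed (1.94-fold lower, adjusted p = 0.00199). Mitochondrial ribosomal protein genes gave 21 lower of 63 (0 higher and 38 lower with median centring, 0 and 32 after quantile normalization). The lower count became 11 without ALA-free array 2 or ALA-fed array 1 and 10 without ALA-fed array 2. The proteasome genes changed little, 6 lower of 34 (0 higher and 14 lower with median centring, 0 and 7 after quantile normalization).

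The lowest median difference of all lists examined was among genes of the late cell cycle. Of 14 genes expressed in daughter cells or at cell separation 12 were lower and 1 higher (1 higher and 13 lower with median centring, 1 and 12 after quantile normalization), with a median log2 difference of -2.50. DSE2, a glucanase of cell separation, measured 376 and 311 ALA-free, against 6271 and 6171 ALA-fed. It fell 18.2-fold (SE 0.16 on the log2 scale, adjusted p = 1.46e-06). SUN4, another protein of septation, measured 392 and 369 ALA-free, against 3093 and 2965 ALA-fed (7.97-fold lower, adjusted p = 3.45e-06), and SCW11, a glucanase, 51.3 and 33.5 ALA-free, against 593 and 639.6 ALA-fed (at least 12.6-fold lower, adjusted p = 8.25e-06). AMN1, which turns off the exit from mitosis in daughters, measured 415 and 538 ALA-free, against 2071 and 2933 ALA-fed (5.21-fold lower, adjusted p = 8.42e-05). The exception was ASH1, a repressor of HO that acts in daughter cells, with 3107 and 2128 ALA-free, against 738 and 882 ALA-fed (3.19-fold higher, adjusted p = 0.000635). HO, for the endonuclease of mating-type switching, was dim without ALA (33.7 and 15.3), against 427 and 379 ALA-fed, and at least 8.43-fold lower (adjusted p = 4.38e-05). NIS1, a bud neck protein, did not pass, with 483 and 551 ALA-free and 579 and 579.99 ALA-fed. In RNA from whole cultures, fewer cells in a stage of the cycle and less RNA per cell cannot be told apart.

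Further cell cycle lists held few higher calls, beside 31.2% higher and 19.0% lower of all genes. Of 11 genes of the mitotic CLB2 cluster 8 were lower and 0 higher (0 higher and 9 lower with median centring, 0 and 9 after quantile normalization). In fits that left out 1 array, the lower count became 5 without ALA-free array 2 or ALA-fed array 1. CLB1, a mitotic cyclin, was dim without ALA (23.8 and 26.2), against 261 and 299 ALA-fed (at least 5.85-fold lower, adjusted p = 1e-05). CHS2, for the chitin synthase of the septum, measured 74.9 and 80.9 ALA-free, against 294 and 357 ALA-fed (4.16-fold lower, adjusted p = 0.0001). The 4 tested histone genes were lower (0 higher and 4 lower with median centring, 0 and 3 after quantile normalization). HTB2, for histone H2B, measured 522 and 499 ALA-free, against 3613 and 3513 ALA-fed (6.98-fold lower, adjusted p = 3.45e-06). Of 25 DNA replication genes 3 were higher and 6 lower (1 higher and 15 lower with median centring, 1 and 13 after quantile normalization). When 1 array was left out, the higher count became 1 without ALA-fed array 2. RNR1, for the large subunit of ribonucleotide reductase, measured 314 and 269 ALA-free, against 1866 and 1785 ALA-fed (6.28-fold lower, adjusted p = 9.18e-06), and POL30, the replication clamp, 80.2 and 90.8 ALA-free, against 487 and 717 ALA-fed (6.93-fold lower, adjusted p = 6.62e-05). PCL1, a G1 cyclin, was dim without ALA (30.03 and 27.3), against 169 and 152 ALA-fed (at least 3.36-fold lower, adjusted p = 8.25e-05). CLN3, the cyclin at the start of the cycle, did not pass, with 1111 and 929.6 ALA-free and 1069 and 705 ALA-fed. All 4 genes specific to the alpha mating type were lower (0 higher and 4 lower with median centring, 0 and 3 after quantile normalization), and MF(ALPHA)2, a pheromone gene, measured 400.04 and 626 ALA-free, against 3765 and 5458 ALA-fed (9.06-fold lower, adjusted p = 5.51e-05). Of 6 genes specific to the a mating type 4 could be tested, with 2 higher and 0 lower. With median centring and after quantile normalization 1 of them was higher. Their higher count also became 1 without any 1 of the 4 hem1 arrays.

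**Figure D4:**
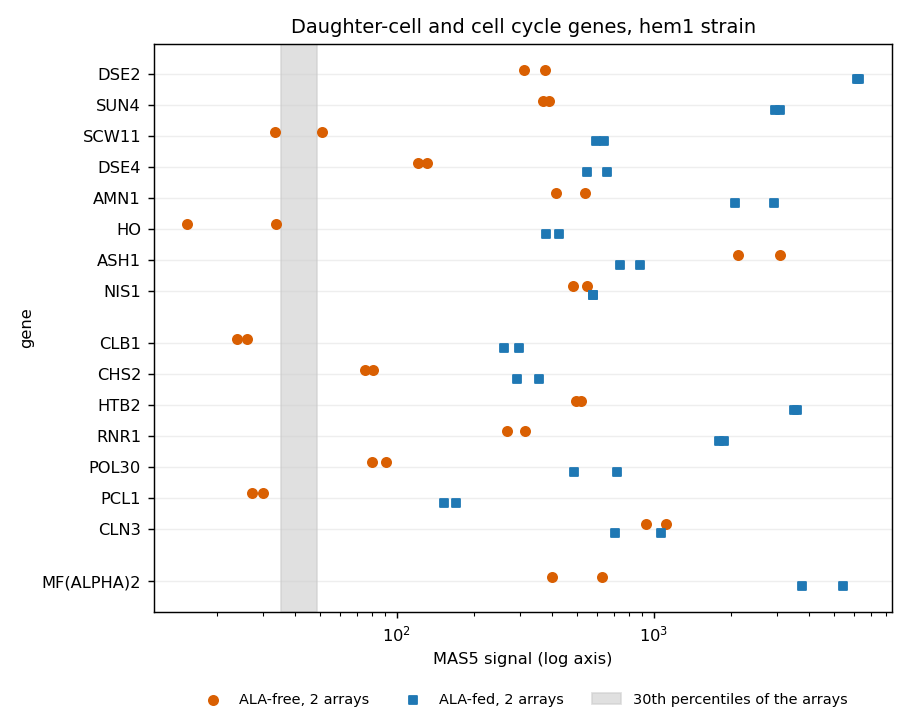
MAS5 signal of daughter-cell and other cell cycle genes on a log axis, 1 row per gene, with the 2 ALA-free arrays as orange circles and the 2 ALA-fed arrays as blue squares. The grey band spans the 30th percentiles of the 4 arrays, below which a signal counts as dim, and ASH1 alone among the called genes shown lies higher without ALA.

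The largest changes of the whole comparison, ranked among genes above the 30th percentile on all 4 hem1 arrays, include several genes not named above. SPG4, known from survival in stationary phase, measured 2218 and 3155 ALA-free, against 41.5 and 39.9 ALA-fed. Its 65.04-fold rise (SE 0.24 on the log2 scale, adjusted p = 1.71e-06) rests on ALA-fed signals just above those arrays' 30th percentiles, 37.1 and 35.5. CPP3 measured 6072 and 5883 ALA-free, against 191 and 243 ALA-fed (27.7-fold higher, adjusted p = 1.25e-06). YSR3, for a phosphatase of sphingoid base phosphates, measured 5691 and 7545 ALA-free, against 302 and 322 ALA-fed (21.03-fold higher, adjusted p = 1.71e-06). PAI3, an inhibitor of the vacuolar protease Pep4, measured 1621 and 1821 ALA-free, against 83.4 and 94.7 ALA-fed (19.3-fold higher, adjusted p = 1.71e-06), and the PEP4 transcript did not pass, with 8043 and 6936 ALA-free and 7018 and 6463 ALA-fed. RTA1, of a lipid-translocating family, was 18.1-fold higher (adjusted p = 5.76e-06). The falls included UTR2, which links chitin to glucan in the wall, with 311 and 208 ALA-free, against 3688 and 3415 ALA-fed (13.9-fold lower, adjusted p = 6.54e-06). SRL1, a wall mannoprotein, measured 1073 and 1009 ALA-free, against 8703 and 8338 ALA-fed (8.18-fold lower, adjusted p = 2.87e-06), and YOR342C, without a known function, 104 and 90.5 ALA-free, against 961 and 974 ALA-fed (9.96-fold lower, adjusted p = 7.74e-06). The 25S ribosomal RNA probe set RDN25-1 also ranked among the falls, but it measured 651 and 92.2 ALA-free, against 2151 and 1293 ALA-fed, and lost its call without ALA-free array 2, ALA-fed array 1 or ALA-fed array 2 (adjusted p between 0.00893 and 0.261 over all alternatives). Its fold of 6.802 was 18.1 without ALA-free array 1 and 2.56 without ALA-free array 2.

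Among genes dim in 1 group, PDC6, a minor pyruvate decarboxylase, measured 975 and 797 ALA-free, against a dim 20.1 and 16.6 ALA-fed (at least 24.3-fold higher, adjusted p = 1.75e-06). ROQ1, which redirects the degradation of misfolded proteins, measured 710.03 and 550.3 ALA-free, against a dim 17.4 and 15.5 ALA-fed (at least 17.2-fold higher, adjusted p = 3.88e-06). CSR2, an adaptor for the ubiquitin ligase of plasma membrane proteins, measured 651 and 638 ALA-free, against a dim 32.3 and 29.03 ALA-fed (at least 17.8-fold higher, adjusted p = 1.6e-05). All 3 of these genes were dim on both arrays with ALA and bright on both without. In the opposite direction AIM20 measured a dim 5.13 and 8.48 ALA-free, against 461 and 351 ALA-fed (at least 8.43-fold lower, adjusted p = 3.59e-06), and YGR035C a dim 28.1 and 29.8 ALA-free, against 749.9 and 659.6 ALA-fed (at least 14.7-fold lower, adjusted p = 2.42e-06).

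Members of several isoform pairs differed in their response. The pairs were picked after their values were seen, so they are a description. In each of the pairs plotted 1 gene was called higher and its counterpart was called lower or did not pass on the deposited signals. With median centring the counterparts HXT3, TSA1, HSC82, PDC1 and PHO84 were called lower. COX5B, the hypoxic form of the COX5A subunit, measured 688 and 608 ALA-free, against 367 and 402 ALA-fed (1.68-fold higher, adjusted p = 0.00887). The COX5B call did not hold with median centring, on the spiked controls or without ALA-fed array 1 (adjusted p between 0.00781 and 0.146 over all alternatives). PHO89, a sodium-coupled phosphate carrier, measured 4067 and 4131 ALA-free, against 715 and 1248 ALA-fed (4.34-fold higher, adjusted p = 0.000324), and the proton-coupled PHO84 did not pass, with 9116 and 8879.8 ALA-free and 12630.0 and 9949.5 ALA-fed. CHS1, the chitin synthase of wall repair, measured 585 and 599.96 ALA-free, against 136 and 197 ALA-fed (3.62-fold higher, adjusted p = 0.000198), opposite to CHS2. HSP82 measured 3956 and 3254 ALA-free, against 1224 and 1541 ALA-fed (2.61-fold higher, adjusted p = 0.000461), while its Hsp90 paralog HSC82 did not pass, with 7181 and 8334 ALA-free and 9257 and 8167 ALA-fed. PDC1, the main pyruvate decarboxylase and the counterpart of PDC6, did not pass, with 8273 and 6772 ALA-free and 7467 and 8764 ALA-fed.

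**Figure D5:**
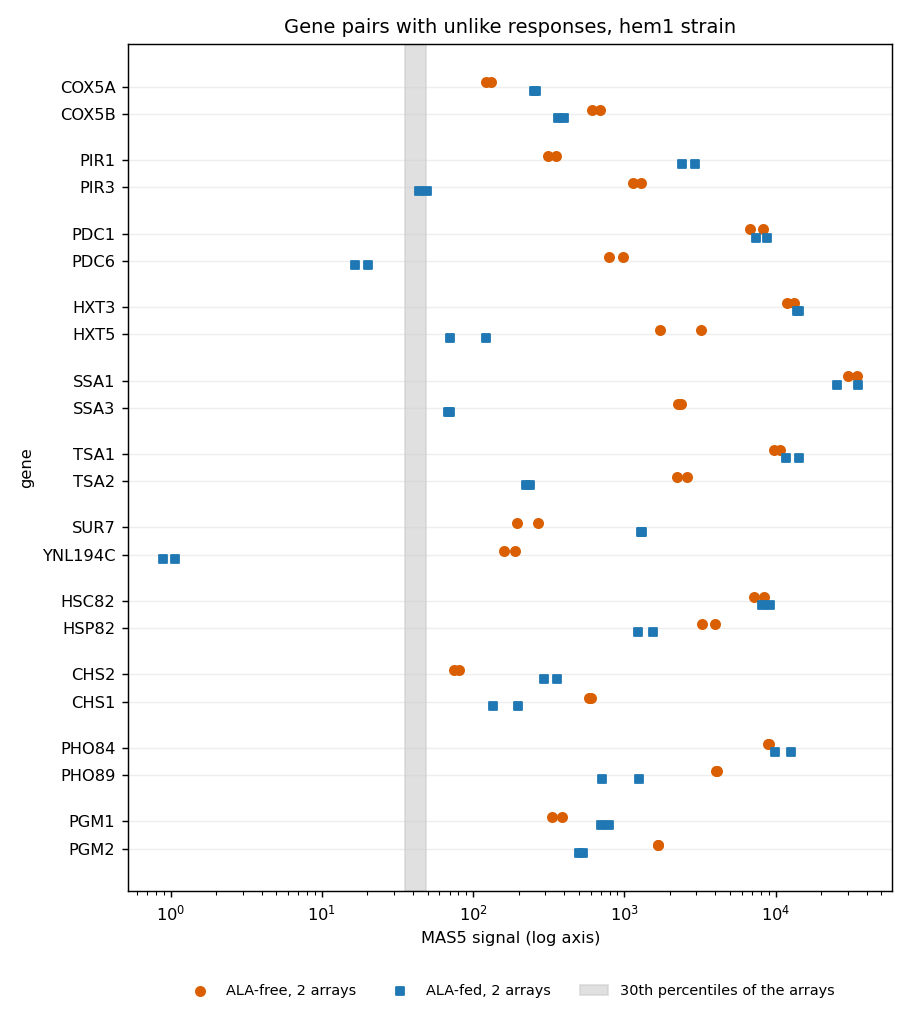
MAS5 signal of paired genes on a log axis, 1 row per gene and 1 block per pair, with ALA-free arrays as orange circles and ALA-fed arrays as blue squares. In each pair the second gene, such as COX5B, PIR3 or SSA3, was called higher without ALA, while the first, such as COX5A, PIR1 or SSA1, was called lower or did not pass.

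The shares of calls differed by position on the chromosome and by gene length. Of 168 tested genes among the outermost 10 protein-coding genes of each chromosome end, 54.2% were higher and 10.1% lower, against 30.7% and 18.7% of 4698 genes further in. Without the seripauperin, DAN and TIR genes the 161 left were 52.2% higher and 10.6% lower, and the next 10 genes inward were 34.7% higher and 18.1% lower. With median centring the higher share was 38.7% at the ends, 21.9% next to them and 19.2% further in. By quartile of annotated gene length, from short to long, 25.6%, 28.6%, 32.6% and 37.9% were higher and 26.7%, 20.2%, 16.7% and 12.3% lower. By quartile of mean signal, from dim to bright, 31.6%, 35.7%, 34.8% and 22.7% were higher and 11.6%, 13.5%, 17.95% and 32.9% lower. These shares describe the genes on the array, and the part of signal, length or neighbouring genes in one another's trend was not tested.

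The hem1 response was also set against hypoxia in the wild type, a contrast that shares no arrays with it but differs in strain, culture time and treatment, which cannot be told apart. The actin 3' to 5' signal ratio was 2.11 and 2.18 in hypoxia, against 1.40 and 1.49 in normoxia, and its part in the wild type response and in the difference was not tested. The difference of the responses passed for 1257 probe sets (17.8%), 8.46% higher and 9.29% lower in heme depletion, and for 9.81% of genes with a higher and 6.45% with a lower value in heme depletion. It passed for 758 without ALA-fed array 1, 735 without ALA-fed array 2 and 467 without both arrays with a high 18S signal. Of 5283 genes 1911 were called in both responses, 1130 higher in both, 694 lower in both and 87 in opposite directions. The difference passed for all 87, but it is built from both responses in the same fit. Opposite calls therefore nearly ensure that it passes, and this count adds no support. The opposite responders numbered 91 with median centring and 97 after quantile normalization. ECM13, of unknown function, had the widest difference of the 87. It measured 67.7 and 87.1 ALA-free, against 864 and 892 ALA-fed, and 457 and 450.3 in hypoxia, against 99.5 and 82.4 in normoxia. Its log2 difference was -3.51 in heme depletion and 2.32 in hypoxia (difference of the responses -5.84, SE 0.27, adjusted p = 8.23e-05). DSE4, a glucanase of daughter cells, fell in the ALA-free cultures (131 and 121, against 551 and 654 ALA-fed) but measured 721 and 799 in hypoxia, against 187 and 247 in normoxia (difference of the responses -4.07, adjusted p = 0.000272). IDH1 likewise measured 1335 and 1585 in hypoxia, against 314 and 443 in normoxia (difference of the responses -2.96, adjusted p = 0.00123). MDH2 went the other way, with 2660.0 and 2989 in hypoxia, against 4481 and 4778 in normoxia (difference of the responses 2.74, adjusted p = 0.000297), and CIP1, an inhibitor of cell cycle kinases, rose to 258 and 269.6 ALA-free, against 124 and 158 ALA-fed, a call lost on the spiked controls (adjusted p between 0.00377 and 0.0576 over all alternatives), but measured 129 and 118 in hypoxia, against 695 and 609 in normoxia (difference of the responses 3.31, adjusted p = 0.000437).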

How the data were processed

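Per the submitters' processing notes, the authors made the deposited intensity values with MAS5. They are linear signals with a nearly equal trimmed mean per array. Scaling by that mean was read from the values, and version, genome build and detection calls are not given in the sources used here. Log2 signals were fitted in limma 3.58.1 (R 4.3.3), with 1 mean per group over all 8 arrays, an intensity trend and no pseudocount. A probe set was tested if 2 or more of the 8 arrays exceeded their own 30th percentile, and p-values were Benjamini-Hochberg adjusted over 7081 probe sets (threshold 0.05, two-sided). With 2 arrays per group the number of arrays limits precision. On simulated data for this comparison (7081 probe sets), 80 of 100 2-fold and 100 of 100 4-fold changes were recovered with 12 false calls. Only 200 simulated probe sets changed, with independent noise and no shift between arrays. The data differ in both the share called and the array medians, so these rates need not hold for them. A gene is its brightest probe set, with names from the platform annotation updated through RefSeq. Lists are described by counts and medians, without a set test.

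Named were the 12 largest rises and falls bright on all 4 hem1 arrays, with at most 2 seripauperins, the 8 largest bounds in each direction, up to 3 members per list and direction, members of the heme and daughter-cell lists, and fixed regulators. Not all of these are printed, and other genes were named after their values were seen. The members and lists were chosen with earlier results of these data known.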

Additional observations from a re-analysis of the deposited data

Results flagged for a closer look

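The 3 ribosomal RNA control probe sets described here, which the comparisons do not use, were bright on 1 ALA-free array. The other 18S and 25S probe sets did not stand out there against the ALA-fed arrays. On that array the 18S probe set c measured 64.9, against 81.8 and 78.2 ALA-fed. The 25S probe set e measured 1571.5, against 3119.6 and 1932.9 ALA-fed. On ALA-free array 1 the 18S probe sets a and b measured 3717 and 3507 and the 25S probe set a measured 8461. On ALA-free array 2 the same probe sets measured 203, 115 and 1939. The ALA-fed arrays 1 and 2 measured 489 and 346 for the 18S probe set a, 180.2 and 170.4 for b and 3051 and 2403 for the 25S probe set. The part of this signal in the calls was not tested beyond leaving the array out, which gave 2964 calls, against 3534 with all arrays.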

How the results depend on the processing

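Between ALA-free and ALA-fed cultures, the deposited signals gave 3534 calls, 2141 higher and 1393 lower. Each other scaling has a call set of its own: median centring gave 1403 higher and 2409 lower, quantile normalization 1637 and 1881, and spiked controls 1454 and 1802. Leaving out 1 hem1 array gave 2658 to 2964 calls, with 1686 to 1772 higher and 972 to 1192 lower. Other filters, floors, pseudocounts and fits gave 2992 to 3656 calls.

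For heme depletion minus hypoxia, 1257 calls (599 higher, 658 lower) became 735 to 917 without 1 hem1 array, with 336 to 371 higher and 399 to 546 lower. Scaling to spiked controls gave 143 higher. Leaving out both arrays with a high 18S signal gave 467 calls, 143 higher and 324 lower. For ALA-fed minus normoxia, 1540 calls (979 higher, 561 lower) became 695 to 1514 without 1 hem1 array, with 430.0 to 965 higher and 265 to 549 lower. Median centring gave 603 higher and 1079 lower, quantile normalization 580.0 higher, and spiked controls 2023 higher and 180.0 lower. Beyond fewer arrays, the cause was not tested.

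The log2 differences of 2 genes reversed when dim signals were raised to the 30th percentile, to 0.021 for CTA1 and 0.39 for CYC1. Genes reported as not passing can pass under another scaling: CYB5, HSC82, HXT3, NIS1, PDC1, PHO84, ROX1, SUT1 and TSA1 were lower with median centring, and ANB1, OLE1, PEP4 and TIR1 higher after quantile normalization. Signals at or below the 30th percentile give only bounds. No paired analysis was possible because the array numbers in the labels do not recur between groups. Promoter motif shares were planned and not run, since promoter sequence was not used here.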
